A study of Homo sapiens with 12 samples.

Results

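The 10 genes described here encode brakes on cell division, and they were taken by symbol from the 26364 genes of the count files. They are 2 CIP/KIP inhibitors of cyclin-dependent kinases (CDKN1A, CDKN1B), 2 INK4 inhibitors (CDKN2C, CDKN2D), 3 members of the BTG family (BTG1, BTG2, BTG3) and the 3 pocket proteins (RB1, RBL1, RBL2). HL-60 is a cell line from a human myeloid leukemia that can be driven towards neutrophils with all-trans retinoic acid (ATRA). ATRA activates retinoic acid receptors. The study measured RNA of HL-60 cells by sequencing. Its 4 groups of 3 libraries are HL-60 cells without ATRA (0 h) and HL-60 cells given 1 µM ATRA for 4 h, for 2 d or for 4 d. All are cultures of 1 cell line in the same serum-containing medium, and no group of cells kept without ATRA for 2 d or 4 d was analysed here. The labels do not say whether the 3 replicates of a time came from separate cultures, so p-values measure the spread between these libraries, which may be technical.

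Cells enter S phase when cyclin D with CDK4 or CDK6, and cyclin E with CDK2, phosphorylate the pocket proteins and free the E2F factors that the pocket proteins hold. CIP/KIP proteins bind cyclin-CDK complexes, whereas INK4 proteins bind CDK4 and CDK6 alone. RB1 chiefly restrains the activating E2F factors, and RBL1 (p107) and RBL2 (p130) form repressor complexes with E2F4, in resting cells as part of the DREAM complex together with the MuvB proteins. BTG proteins slow proliferation and act with the CCR4-NOT deadenylase, which shortens the poly(A) tails of mRNAs. Neutrophil precursors stop dividing as they mature past the myelocyte stage.

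Promoter sequence is shown for BTG1 and BTG2, the genes with the largest rise at 4 d, and for RBL1. RBL1 fell furthest from 2 d to 4 d, and its promoter held more E2F motifs than any promoter searched for the other 9. The sequences are the stretches up to 250 bases before the transcription start in RefSeq (GRCh38.p14), trimmed where GENCODE 29 places the transcript start further upstream. All 10 genes matched that table, with 13 entries, and both strands of the 250 bases were searched for 4 kinds of motif. Capitals mark E2F motifs (TTTCCCGC, TTTGGCGC or TTTCGCGC) and half-sites of retinoic acid receptors, on either strand. The half-sites searched were AGGTCA, the form GGGTCA, the form AGTTCA and the form GGTTCA.
RBL1, chr20:37095998-37096247, minus strand: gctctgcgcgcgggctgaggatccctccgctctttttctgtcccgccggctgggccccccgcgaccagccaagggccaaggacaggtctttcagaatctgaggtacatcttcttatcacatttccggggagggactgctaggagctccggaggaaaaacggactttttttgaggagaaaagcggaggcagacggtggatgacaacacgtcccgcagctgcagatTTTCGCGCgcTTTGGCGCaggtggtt
BTG1, chr12:92145898-92146096, minus strand: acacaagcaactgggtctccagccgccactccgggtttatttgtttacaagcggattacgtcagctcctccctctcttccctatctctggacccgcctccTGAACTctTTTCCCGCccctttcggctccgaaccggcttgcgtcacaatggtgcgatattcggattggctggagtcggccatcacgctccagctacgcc
BTG2, chr1:203305269-203305490, plus strand: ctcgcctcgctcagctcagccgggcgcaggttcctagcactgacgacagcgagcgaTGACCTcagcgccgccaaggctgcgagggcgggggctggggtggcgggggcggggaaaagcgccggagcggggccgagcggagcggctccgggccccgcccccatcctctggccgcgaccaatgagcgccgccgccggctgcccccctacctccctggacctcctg

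The RBL1 promoter held TTTCGCGC 26 to 19 bases before the start and TTTGGCGC 16 to 9 bases before it. The BTG1 promoter held TTTCCCGC 142 to 135 bases before the start. These were 2 of the 10 genes with an E2F match, against 2.32% of the 35116 promoters of that length. Receptor half-sites were found for 5 genes (BTG1, BTG2, BTG3, RB1 and RBL2), against 33.83% of all promoters. The entry for RB1 lies 172724 bases inside the gene as GENCODE 29 gives it, so its match is not at the main start of RB1, which was not searched. The E-box CACGTG, a motif that MYC and related factors bind, was found for CDKN2C alone among the 10, against 6.34% of promoters. CDKN2C has 3 entries, and the match lay in entries 1 and 3 and not in entry 2. Counts of the 10 are per gene over any entry, whereas the shares are per promoter entry. The cell cycle motif TTTGAA was found in none of the 13 entries, against 13.32% of promoters. The matches found did not overlap each other, and a match of letters is a description rather than a binding site.

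Gene reads per library ran from 7866757 to 13658177. All 10 genes passed the filter on low counts, which kept 12671 genes. Levels are given as counts-per-million (CPM) over all gene reads, scaled by TMM factors, and changes as log2 fold changes ± SE from edgeR's quasi-likelihood fit to all 12 libraries. A gene was called changed at a Benjamini-Hochberg adjusted p under 0.05 over all tested genes. In 3 libraries (replicate 2 of 0 h, replicate 3 of 4 h and replicate 1 of 4 d) GC-rich genes were higher than in their group mates, by 0.311 to 0.486 log2 units per 10 percentage points of GC content. BTG2, RB1 and RBL1 were lowest of their group in all 3 of these libraries, and CDKN2D and BTG1 in none. The 4 h replicate 1 also stood apart, with a read in 22265 genes against 15198 to 15798 in the other 11 libraries and with 28.15% of its reads outside genes. Counts of calls among the 10 genes are therefore given with all 12 libraries and without the 3 GC-rich ones, an omission chosen after the data were seen.

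Of the promyelocyte granule and surface genes MPO, ELANE, AZU1, PRTN3, CTSG and CD33, all 6 had reads in every group. Their summed level was 30610 to 43830 CPM at 0 h and 8260 to 9622 CPM at 4 d, with 5 of the 6 lower and CD33 higher. The 10 neutrophil markers summed to 710.4 to 995 CPM at 0 h, 2710 to 2808 CPM at 2 d and 4921 to 6690 CPM at 4 d, where 7 were higher than at 0 h and 2, LTF and LCN2, lower. The 6 monocyte markers summed to 26.9 to 29.9 CPM at 0 h and 108 to 131 CPM at 4 d, where CD163 and VCAN were at 0. Of the 3 monocyte markers tested, 2 were higher at 4 d and CD14 was lower. The 5 eosinophil markers summed to 5080 to 7710 CPM at 0 h and 682 to 713.5 CPM at 4 d, with 2 higher and 3 lower. PRG2 carried that sum, at 5817 CPM at 0 h and 228 CPM at 4 d, while CCR3 went from 0.585 to 231.5 CPM. The part that these shifts play in the levels of the 10 genes was not tested. In bulk RNA, fewer cells with a transcript and less of it per cell cannot be told apart.

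**Figure D1:**
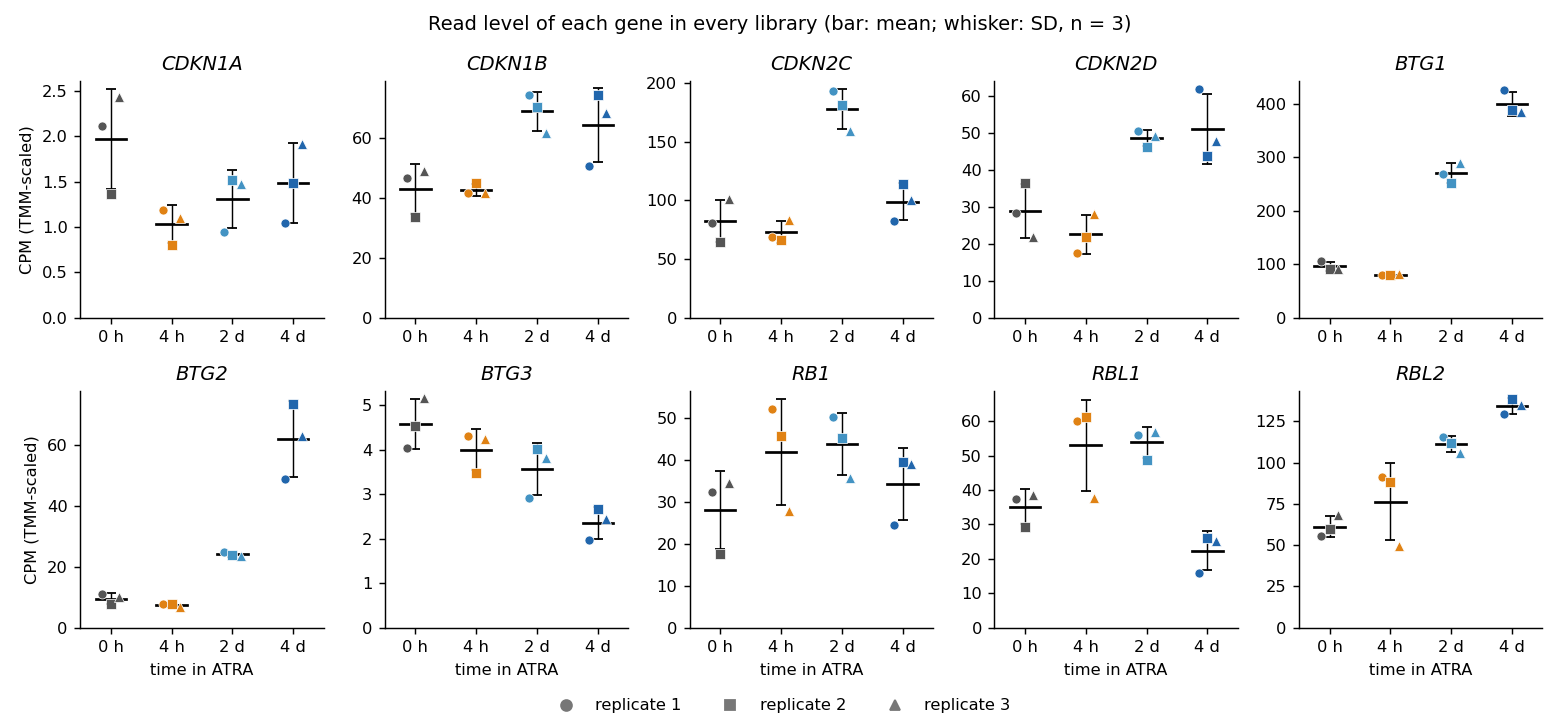
Level of each of the 10 genes in TMM-scaled CPM (vertical axes, each from 0) at 0 h, 4 h, 2 d and 4 d of ATRA. Points are libraries, with the shape giving the replicate number, bars are means and whiskers SD over 3 libraries. BTG1 and BTG2 are highest at 4 d in every library, CDKN2C at 2 d, and RBL1 has its 3 lowest libraries at 4 d.

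Within 4 h of ATRA, no change in any of the 10 genes passed the test. In edgeR's test 0 of 10 were called, against 6.23% of all tested genes, and DESeq2 and limma-voom also called 0. RBL1 passed with no filter on low counts (0.59, adjusted p = 0.0438) and BTG1 with an offset for the GC content and length of each gene (-0.56, adjusted p = 0.0414). Without 4 h replicate 3, RBL1 (0.805, adjusted p = 0.0277) and RBL2 (0.57, adjusted p = 0.0223) passed. At an unadjusted p under 0.05 there were 2, CDKN1A (log2 fold change -0.94 ± 0.36, adjusted p = 0.133) and RBL1 (0.59 ± 0.22, adjusted p = 0.122). CDKN1A, BTG1 and BTG2 had every 4 h library below every 0 h library, a lack of overlap in that direction seen in 12.5% of tested genes. RB1, RBL1 and RBL2 were high in 4 h replicates 1 and 2 and low in replicate 3, whose value lay inside the 0 h range or below it for all 3 genes. Without the 3 GC-rich libraries, 6 of the 10 were called at 4 h, against 24.9% of all genes. These were RB1 (0.55), RBL1 (0.67) and RBL2 (0.54) in the higher direction and CDKN1A (-1.20), CDKN2C (-0.43) and BTG2 (-0.46) in the lower. That fit has 2 libraries each at 0 h and 4 h. Those of 4 h are replicate 2 and replicate 1, the library with a read in 22265 genes that also stood apart. The omitted replicate 3 is the one in which RB1, RBL1 and RBL2 were low.

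By 2 d of ATRA, 7 of the 10 genes had risen and none had fallen. Those 7 were CDKN1B, CDKN2C, CDKN2D, BTG1, BTG2, RBL1 and RBL2, against 35.6% of all tested genes called, 16.9% higher and 18.7% lower. The median change of the 10 was 0.71 on the log2 scale, beside -0.02 over all tested genes. Without the 3 GC-rich libraries RB1 also passed (0.39, adjusted p = 0.0198), which made 8, against 52.8% of all genes called. At 4 d, 5 genes stood above 0 h (CDKN1B, CDKN2D, BTG1, BTG2 and RBL2) and 2 below (BTG3 and RBL1), against 57.8% of all tested genes called, 28.1% higher and 29.7% lower. Their median change was 0.44, beside 0 for all tested genes. The share of the 10 that was called at 4 d is thus near the background share, and the same 7 were called without the 3 libraries, against 68.1% of all genes.

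**Figure D2:**
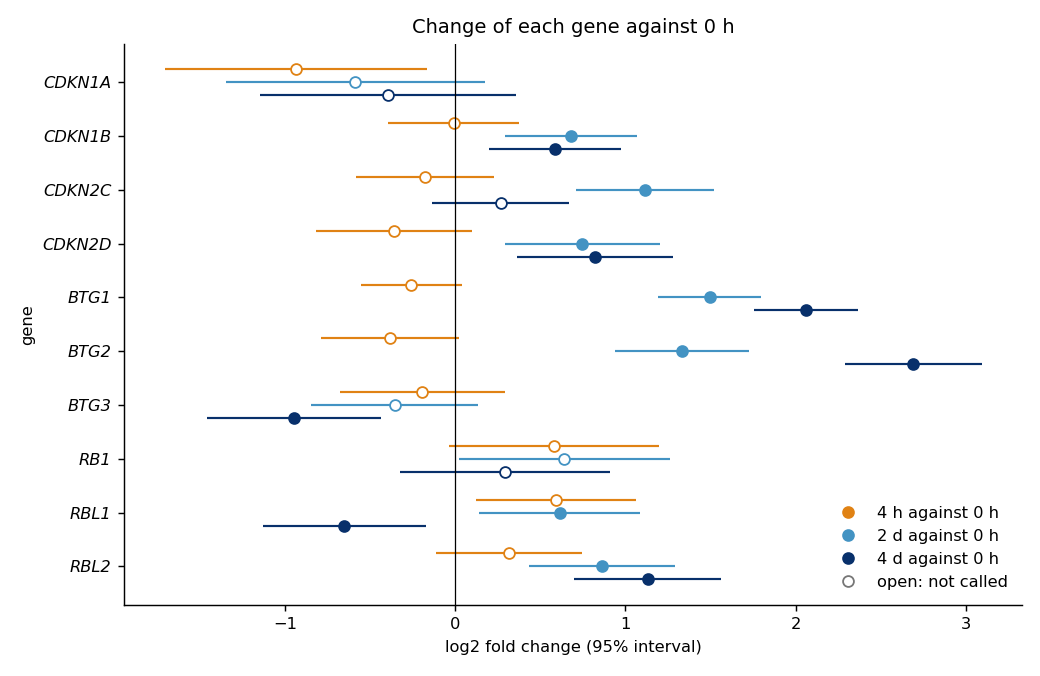
Log2 fold change of each gene against 0 h (horizontal axis) with its 95% interval, at 4 h, 2 d and 4 d. Filled points passed an adjusted p under 0.05. No gene is filled at 4 h, 7 are filled above 0 at 2 d, and at 4 d 5 are filled above 0 and 2 below.

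CDKN1A encodes p21, an inhibitor of cyclin E and cyclin A complexes with CDK2. It lies at chr6:36676460-36687339 (GRCh38, GENCODE 29). Its level was 2.11, 1.36 and 2.44 CPM in the 0 h replicates 1 to 3, and 1.19, 0.798 and 1.10 CPM at 4 h. It was 0.942, 1.51 and 1.48 CPM at 2 d and 1.04, 1.49 and 1.92 CPM at 4 d. These levels rest on 10 to 25 reads per library. No comparison between times was called, and at 4 d against 0 h the groups overlapped (-0.40, 95% interval -1.15 to 0.36, adjusted p = 0.35). Per kilobase of transcript it was the lowest of the 10 genes at all 4 times, 0.455 to 0.870 CPM per kb.

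CDKN1B encodes p27, the CIP/KIP inhibitor that accumulates in cells leaving the cycle. It lies at chr12:12715058-12722371. Its level was 46.7, 33.5 and 48.8 CPM at 0 h and 41.5, 45.1 and 41.5 CPM at 4 h. It stood at 74.4, 70.4 and 61.7 CPM at 2 d and 50.6, 74.4 and 68.4 CPM at 4 d. Every library of 2 d and 4 d lay above every library of 0 h and 4 h, and the lowest of these, 4 d replicate 1, was only just above the highest of 0 h. The rise was 1.6-fold at 2 d (0.68 ± 0.18, adjusted p = 0.0101) and 1.5-fold at 4 d (0.58 ± 0.18, adjusted p = 0.0129). Without 4 d replicate 2 the 4 d value was 0.46 with an adjusted p of 0.0579. The levels of 2 d and 4 d did not differ beyond their spread (adjusted p = 0.73). Per kilobase, CDKN1B made up 95% to 97.8% of the summed level of the 2 CIP/KIP genes at each time.

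CDKN2C encodes p18, an INK4 inhibitor of CDK4 and CDK6. It lies at chr1:50960745-50974633. Its level was 80.8, 64.8 and 100.7 CPM at 0 h and 68.6, 65.9 and 83.2 CPM at 4 h. At 2 d it reached 193, 181 and 159 CPM, and at 4 d it was back at 82.1, 114 and 100.4 CPM. All 3 libraries of 2 d stood above the other 9, and those of 4 d overlapped those of 0 h. The rise at 2 d was 2.17-fold (1.12 ± 0.19, adjusted p = 0.000579). The fall from 2 d to 4 d was 1.80-fold (-0.85 ± 0.19, adjusted p = 0.00528), and 4 d against 0 h was not called (0.27, 95% interval -0.14 to 0.67). CDKN2C was the gene among the 10 whose called rise at 2 d was followed by a called fall back to a level not told apart from 0 h.

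CDKN2D encodes p19, the other INK4 inhibitor followed here. It lies at chr19:10566462-10569059. Its level was 28.4, 36.6 and 21.9 CPM at 0 h and 17.6, 22.0 and 28.1 CPM at 4 h. It was 50.5, 46.3 and 49.1 CPM at 2 d and 61.9, 43.9 and 47.8 CPM at 4 d. The 6 libraries of 2 d and 4 d all lay above the 6 of 0 h and 4 h. The gene rose 1.68-fold at 2 d (0.75 ± 0.21, adjusted p = 0.0146) and was 1.77-fold above 0 h at 4 d (0.82 ± 0.21, adjusted p = 0.00456). Without 0 h replicate 3 the 2 d value was 0.58 with an adjusted p of 0.0606. Between 2 d and 4 d it was not called (0.07, 95% interval -0.38 to 0.52).

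Both INK4 genes were thus higher at 2 d than at 0 h, and at 4 d CDKN2D stayed at its level of 2 d where CDKN2C did not. The ratio of CDKN2C reads to CDKN2D reads within a library was 3.83, 3.91 and 3.24 at 2 d and 1.33, 2.59 and 2.1 at 4 d, with no overlap. The difference was -0.92 on the log2 scale, with p = 0.1 in an exact two-sided permutation test, the smallest value that 3 libraries against 3 allow. At 0 h the ratio spread from 1.77 to 4.60, over the range of every other time but the lowest library of 4 d. Per kilobase, the summed level of the pair went from 48.6 ± 1.27 CPM per kb (SD, n = 3) at 0 h to 95.4 ± 6.36 at 2 d and 70.0 ± 1.80 at 4 d.

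BTG1 encodes an antiproliferative protein that is abundant in resting blood cells. It lies at chr12:92140278-92145897, downstream of the promoter with the E2F motif printed above. Its level was 105.3, 90.7 and 90.5 CPM at 0 h and 78.9, 79.7 and 81.0 CPM at 4 h. It rose to 269, 251 and 288 CPM at 2 d and 425, 389 and 383 CPM at 4 d. The 4 times did not overlap, and their order from low to high was 4 h, 0 h, 2 d and 4 d. The lower level at 4 h was not called (adjusted p = 0.248). The rise was 2.82-fold at 2 d (1.495 ± 0.14, adjusted p = 4.54e-06) and 4.18-fold at 4 d (2.06 ± 0.14, adjusted p = 8.41e-08). The step from 2 d to 4 d was 1.48-fold (0.57 ± 0.14, adjusted p = 0.00869), and it missed the threshold when no filter on low counts was used (adjusted p = 0.0599). BTG1 shares 503 exon bases with LINC01619 on the same strand and 325 with AC025164.1 on the opposite strand. Neither has a row in the count files, and both could share reads with BTG1.

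BTG2, also known as an immediate early gene, had the largest fold change of the 10. It lies at chr1:203305491-203309602. Its level was 11.03, 7.64 and 9.94 CPM at 0 h and 7.60, 7.62 and 6.70 CPM at 4 h. It was 24.7, 23.8 and 23.4 CPM at 2 d and 48.6, 73.5 and 63.0 CPM at 4 d. The libraries of 2 d lay in a narrow band between those of 0 h and 4 d, and the 4 times did not overlap. The rise was 2.52-fold at 2 d (1.33 ± 0.18, adjusted p = 0.00011) and 6.47-fold at 4 d (2.69 ± 0.19, adjusted p = 8.41e-08). From 2 d to 4 d BTG2 rose again, 2.57-fold (1.36 ± 0.18, adjusted p = 0.000137).

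BTG3, a more distant family member, went the other way. It lies at chr21:17593653-17612947. Its level was 4.04, 4.55 and 5.16 CPM at 0 h and 4.30, 3.48 and 4.24 CPM at 4 h. It was 2.91, 4.01 and 3.82 CPM at 2 d and 1.97, 2.68 and 2.44 CPM at 4 d, on 19 to 53 reads per library. All 3 libraries of 4 d were below the other 9. The fall at 4 d against 0 h was 1.93-fold (-0.95 ± 0.24, adjusted p = 0.00379; -0.58 and 0.0445 with the offset for GC content and length), and no neighbouring times in the order 0 h, 4 h, 2 d, 4 d differed by call. A BTG3 pseudogene and the antisense gene BTG3-AS1, which shares 280 exon bases with BTG3, could share its reads.

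Within the family, BTG1 held most of the RNA per transcript length. The summed level of BTG1, BTG2 and BTG3 went from 27.01 ± 2.07 CPM per kb (SD, n = 3) at 0 h to 68.8 ± 3.82 at 2 d and 109.6 ± 2.63 at 4 d. BTG2 was 13% of that sum at 0 h, 12.9% at 2 d and 20.8% at 4 d, and BTG3 went from 11.5% to 1.45%. The ratio of BTG1 reads to BTG2 reads was 9.55, 11.9 and 9.11 at 0 h, 10.9, 10.5 and 12.3 at 2 d, and 8.73, 5.29 and 6.08 at 4 d. All 3 libraries of 4 d thus had a lower ratio than the other 9, and the exact two-sided permutation p of 4 d against 2 d was 0.1, the smallest possible. Over the 18 tests made on 3 such ratios, Benjamini-Hochberg adjustment of the exact permutation p-values at that minimum gave 0.2.

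**Figure D3:**
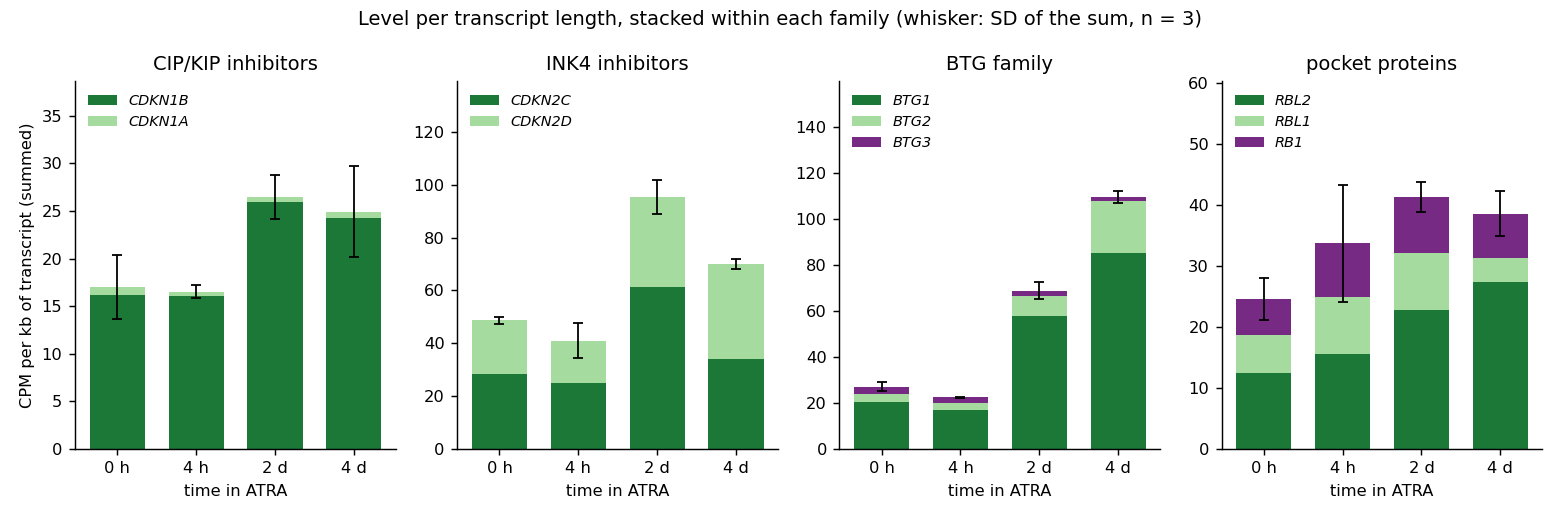
Summed level of each family in CPM per kilobase of transcript (vertical axes, from 0) at the 4 times, with each gene as a coloured part of the bar and the SD of the sum over 3 libraries as whisker. The BTG sum reaches 109.6 at 4 d, the INK4 sum peaks at 95.4 at 2 d, and RBL2 makes up 51.3%, 46%, 55% and 71.5% of the pocket protein bar at 0 h, 4 h, 2 d and 4 d.

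RB1 encodes the retinoblastoma protein. It lies at chr13:48303726-48599436. Its level was 32.3, 17.5 and 34.5 CPM at 0 h and 52.2, 45.8 and 27.9 CPM at 4 h. It was 50.2, 45.2 and 35.7 CPM at 2 d and 24.4, 39.5 and 39.0 CPM at 4 d. The lowest values of 0 h, 4 h and 4 d were those of the 3 GC-rich libraries, and RB1 is the most AT-rich of the 10 genes, with a transcript GC content of 37.3%. No comparison was called with all 12 libraries and the filter on low counts. At 2 d every library was above every library of 0 h, a direction and lack of overlap shared by 26.0% of tested genes (0.64 ± 0.29, adjusted p = 0.097). With no filter on low counts that rise was called (0.65, adjusted p = 0.00922). At 4 d the difference from 0 h was 0.29 (95% interval -0.33 to 0.91, adjusted p = 0.405).

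RBL1 encodes p107, the pocket protein of cycling cells and itself a known E2F target. It lies at chr20:36996349-37095995, and its promoter carries both E2F motifs printed above. Its level was 37.5, 29.4 and 38.7 CPM at 0 h and 60.1, 61.3 and 37.8 CPM at 4 h. It was 56.1, 48.7 and 56.8 CPM at 2 d and 15.8, 26.1 and 25.2 CPM at 4 d. All 3 libraries of 4 d lay below the other 9. The fall from 2 d to 4 d was 2.41-fold (-1.27 ± 0.22, adjusted p = 0.00127) and that from 4 h to 4 d was 2.37-fold (-1.25 ± 0.22, adjusted p = 0.000305). Against 0 h the changes were smaller, 0.61 ± 0.22 at 2 d (adjusted p = 0.0434) and -0.65 ± 0.22 at 4 d (adjusted p = 0.0223). The rise at 2 d missed the threshold in 12 of 23 alternative fits, which include 10 of the 12 that leave out 1 library, with adjusted p-values up to 0.128, and it was 0.33, still called, with the offset for GC content and length. The fall at 4 d missed it in 4, which are library totals alone (adjusted p = 0.0996) and the omission of 0 h replicate 1 (0.0606), of 0 h replicate 3 (0.0694) or of 4 d replicate 1 (-0.46, 0.0952).

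RBL2 encodes p130, the pocket protein of resting cells and of the DREAM complex. It lies at chr16:53433977-53491649. Its level was 55.8, 59.9 and 68.2 CPM at 0 h and 91.1, 88.4 and 49.6 CPM at 4 h. It was 116, 112 and 106.1 CPM at 2 d and 129, 138 and 135 CPM at 4 d. Every library of 2 d was above every library of 0 h and 4 h, and every library of 4 d was above those of 2 d. The rise was 1.82-fold at 2 d (0.86 ± 0.20, adjusted p = 0.00478) and 2.19-fold at 4 d (1.13 ± 0.20, adjusted p = 0.000307). The step from 2 d to 4 d was not called (0.27 ± 0.20, adjusted p = 0.339), though it passed without the 3 GC-rich libraries (0.31, adjusted p = 0.0249). The step from 4 h to 2 d was called (0.54 ± 0.20, adjusted p = 0.0488) but missed the threshold in 13 of 23 alternative fits, 10 of them with 1 library left out, and it was 0.29 with an adjusted p of 0.128 without 4 h replicate 3. RBL2 shares 610 exon bases with AKTIP on the opposite strand, and the strand setting of the counting is not given in the sources used here.

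Between 2 d and 4 d RBL1 fell and RBL2 was not called, and the ratio of RBL2 to RBL1 was higher at 4 d. The ratio of RBL2 reads to RBL1 reads was 1.49, 2.04 and 1.76 at 0 h, 1.52, 1.44 and 1.31 at 4 h, and 2.06, 2.30 and 1.87 at 2 d. At 4 d it was 8.19, 5.31 and 5.37, so that the lowest library of 4 d was well above the highest of any other time. The difference from 0 h was 1.82 on the log2 scale and that from 2 d 1.57, each with p = 0.1 in an exact two-sided permutation test, the smallest that 3 against 3 allow. Benjamini-Hochberg adjustment over the 18 tests made on such ratios gave 0.2 for each. The RBL2 to RBL1 ratio uses counts of 2 genes in the same library and so does not depend on how libraries are scaled. The GC-rich 4 d replicate 1 had the highest ratio, and the other 2 libraries of 4 d were still above the other 9. Per kilobase, RBL2 made up 51.3% of the 3 pocket protein genes at 0 h and 71.5% at 4 d, RBL1 went from 25.2% to 10.1%, and RB1 from 23.5% to 18.4%. The sum itself was 24.5 ± 3.45 CPM per kb (SD, n = 3) at 0 h, 41.3 ± 2.46 at 2 d and 38.5 ± 3.69 at 4 d.

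**Figure D4:**
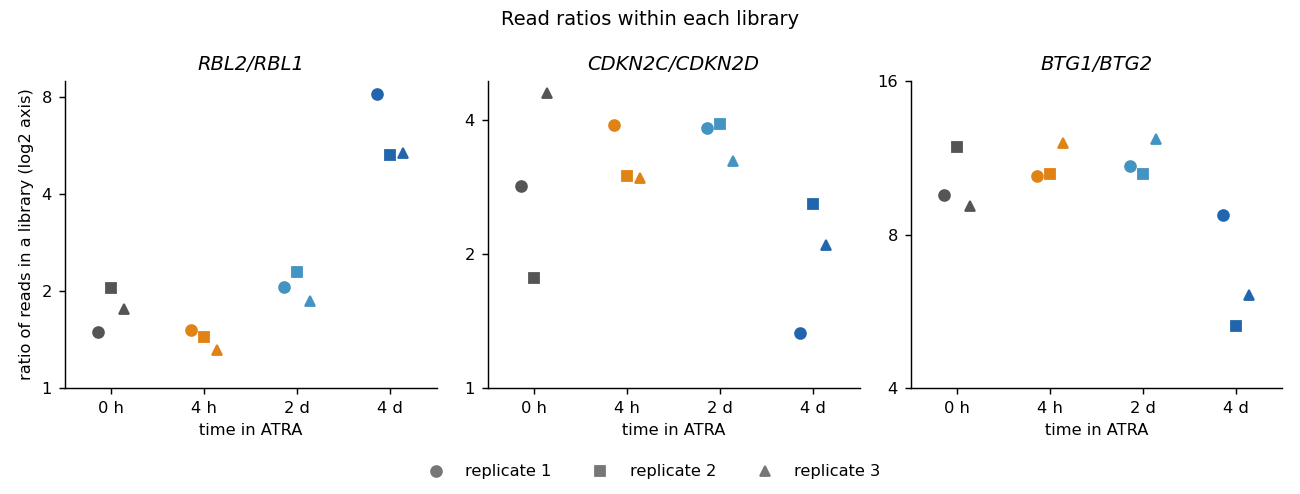
Ratio of the reads of 2 genes within each library (vertical axes, log2 scale) at the 4 times, for RBL2 over RBL1, CDKN2C over CDKN2D and BTG1 over BTG2. Each point is a library. The RBL2 over RBL1 ratio is 5.31 to 8.19 at 4 d and at most 2.30 elsewhere.

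Between 2 d and 4 d, 4 of the 10 genes changed, against 26.6% of all tested genes: BTG1 and BTG2 rose (13.1% of genes were called higher) and CDKN2C and RBL1 fell (13.5% were called lower). From 4 h to 2 d, 6 genes rose, against 34.5% of all genes called and 16.5% called higher, and these were the genes that rose from 0 h apart from RBL1. From 4 h to 4 d, 5 rose and 2 fell, against 60.5% of all genes called, 29.7% higher and 30.8% lower. In that comparison BTG3 fell by 0.75 on the log2 scale (adjusted p = 0.014), a call lost in 4 of 23 alternatives. These were the offset for GC content and length (-0.33, adjusted p = 0.232), no filter on low counts (0.0613), and the omission of 4 d replicate 1 (0.0511) or of the 3 GC-rich libraries (0.0765). CDKN2C, at 0.45, had an adjusted p of 0.0548 and passed in 9 of 23 alternatives, among them DESeq2 (0.48, adjusted p = 0.0244). Its value over the alternatives ran from 0.08, with the offset for GC content and length, to 0.67, without the 3 GC-rich libraries. Without the 3 GC-rich libraries, 5 of the 10 were called for 4 d against 2 d, beside 5549 of 12806 tested genes. For 2 d against 4 h there were 6, beside 6725 genes, and for 4 d against 4 h 7, beside 8725. The comparisons against 0 h share the 0 h libraries and those against 4 h the 4 h libraries. Per transcript length, the 3 highest of the 10 genes were CDKN2C, BTG1 and CDKN2D at 0 h and 2 d (28.3, 20.4 and 20.4 CPM per kb at 0 h, where BTG1 and CDKN2D lay within 1 SD). At 4 d BTG1 led with 85.2 ± 4.81 CPM per kb (SD, n = 3), followed by CDKN2D at 36.0 ± 6.66 and CDKN2C at 34.0 ± 5.49, which did not differ beyond their spread.

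Other genes with CDK inhibitor symbols, together with TOB1 and TOB2, gave 0 calls at 2 d and 1 at 4 d against 0 h. In the list of CDKN1C, CDKN2A, CDKN2B, CDKN3, TOB1 and TOB2, 0 of 6 were called at 2 d in edgeR's test, with 0 at an unadjusted p under 0.05, against 35.6% of all tested genes. At 4 d 1 was called (2 without 4 d replicate 1), against 57.8%. That gene was CDKN3, a phosphatase that acts on CDK2 and is itself high in dividing cells, which fell from 28.3 ± 3.67 to 14.7 ± 1.19 CPM (SD, n = 3; -0.95 ± 0.15, adjusted p = 0.000143). With the offset for GC content and length that value was -0.41 (adjusted p = 0.0074). At 4 d against 4 h, 3 of the 6 were called, against 60.5% of all genes: CDKN1C, from 0.945 to 2.06 CPM, and CDKN2B, from 0.895 to 3.69 CPM, were higher, and CDKN3 was lower. TOB1 and TOB2, the BTG relatives that also bind the deadenylase, were at 18.2 and 62.1 CPM at 0 h and 19.2 and 65.7 CPM at 4 d. BTG4, a gene of oocytes, had 0 reads at 0 h, 2 d and 4 d and was not tested. Whether the 10 genes differ from the genes of this list in their response was not tested.

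Most genes in a list of D, E and A cyclins with CDK2, CDK4 and CDK6 were lower at 2 d and 4 d than at 0 h. Of these 10 genes, which include the A cyclins CCNA1 and CCNA2, 6 were lower and 1 higher at 2 d. At 4 d 8 were lower and 1 higher, with a median of -0.95. Over all tested genes, 18.7% were lower and 16.9% higher at 2 d, and 29.7% lower and 28.1% higher at 4 d. CDK6, a target of INK4 proteins, was 128 ± 37.8 CPM at 0 h, 66.1 ± 8.54 at 2 d and 29.2 ± 7.85 at 4 d (SD, n = 3), a fall of 2.13 ± 0.27 log2 units at 4 d (adjusted p = 1.57e-05). CCNE1, which activates CDK2, fell at 4 d (-2.20 ± 0.23, adjusted p = 3.88e-06). CCNA1, a cyclin of germ cells and myeloid leukemia, had fallen by 4 h (-2.33 ± 0.28, adjusted p = 0.000295) and was lowest at 4 d (-3.48 ± 0.31). The gene that rose was CCND3, a D-type cyclin, at 0.82 ± 0.21 at 2 d and 0.92 ± 0.21 at 4 d (adjusted p = 0.00781 and 0.00191). The D-type cyclins CCND1 and CCND2 had lower means at 4 d, 11.7 CPM against 23.05 at 0 h and 74.6 CPM against 127.7. CCND1 and CCND2 were named after their values were seen.

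Genes that the pocket proteins and E2F control were mostly lower at 4 d, with few called at 2 d. Of 20 E2F targets that act in DNA replication, 2 were lower at 2 d and 20 of 20 at 4 d against 0 h, with medians of -0.16 and -1.52. Among all tested genes, 18.7% were called lower and 16.9% higher at 2 d, and 29.7% lower at 4 d. From 2 d to 4 d alone all 20 fell (median -1.47), against 13.5% of all tested genes called lower. In that interval RBL1 fell and CDKN2C fell back. The count at 2 d depended on the libraries, 12 lower without the 3 GC-rich ones, 5 without 0 h replicate 2 and 0 without 2 d replicate 1, while that at 4 d was 19 or 20 in every alternative. GINS2 (-2.43 ± 0.22), CDC45 (-2.06 ± 0.18) and MCM6 (-2.03 ± 0.25), parts of the replicative helicase, fell furthest at 4 d. Of 12 genes of G2 and mitosis, 9 were lower at 4 d with a median of -0.73, among them BIRC5 (-1.28 ± 0.14), CCNB1 (-1.06 ± 0.21) and AURKB (-1.02 ± 0.22). At 2 d 0 of these 12 were lower and 2 were higher in edgeR's test, with 5 at an unadjusted p under 0.05. Over the alternatives 0 to 4 were lower at 2 d and 0 to 3 higher, with 4 lower without the 3 GC-rich libraries and 0 higher without 0 h replicate 2.

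Among 9 tested E2F and DP factors, 2 were higher and 2 lower at 2 d, against 16.9% and 18.7% of all tested genes. At 4 d 5 were lower and 0 higher. These 5 are a share near the 57.8% of all tested genes called at 4 d, of which 29.7% were lower. The count of lower genes at 4 d ran from 2 to 6 over the alternatives, with 2 without 0 h replicate 3, and at 2 d from 1, without 2 d replicate 2, to 5, without the 3 GC-rich libraries. The 2 that rose at 2 d were E2F2 (0.80 ± 0.14, adjusted p = 0.000802) and E2F8 (0.83 ± 0.16, adjusted p = 0.00126), which were named after their values were seen. E2F1, an activating factor that RB1 binds, went from 151 CPM at 0 h to 85.8 at 2 d and 37.0 at 4 d (-2.04 ± 0.25, adjusted p = 1.3e-05). TFDP2, a dimer partner of E2F factors, fell to a like degree (-2.096 ± 0.198), whereas E2F6 (-0.67 ± 0.26, adjusted p = 0.0386) lost its call in 6 alternatives. E2F4, the partner of RBL1 and RBL2, was at 145 CPM at 0 h and 134 CPM at 4 d and was not called (-0.11 ± 0.17). E2F4 was named after its values were seen. Of 8 MuvB and DREAM genes, 2 were higher and 1 lower at 2 d, a share near the 35.6% of all tested genes called. At 4 d 3 fell and 1 rose (2 without 0 h replicate 2), a share of the list below the 57.8% of all genes. MYBL2, which replaces the pocket proteins on MuvB in cycling cells, fell by 2.04 ± 0.19 log2 units, LIN9 of the MuvB core fell by 1.02 ± 0.20, and DYRK1A, the kinase that promotes DREAM assembly, rose by 1.04 ± 0.15 (0.62 with the offset for GC content and length). Of 10 corepressors that bind pocket proteins or act with them, 6 fell and 3 rose at 4 d, against 29.7% and 28.1% of all genes. RBBP8 (-1.55 ± 0.23) and DNMT1 (-1.24 ± 0.16) were lower and ARID4B (1.48 ± 0.18) higher.

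The machinery that removes p27 and the deadenylase that BTG proteins act with were also followed. The p27 list holds genes of ubiquitin ligases together with CKS1B and CKS2. Of these 8 genes, 3 were lower at 2 d and 6 at 4 d, against 18.7% and 29.7% of all genes, with 0 higher and a median of -0.90 at 4 d. The count at 2 d ran from 1, without 0 h replicate 1, 2 d replicate 1 or 2 d replicate 3, to 5. SKP2, the subunit that recognises p27, was 47.8 ± 9.05 CPM at 0 h, 53.9 ± 4.39 at 2 d and 28.6 ± 6.67 at 4 d (SD, n = 3; -0.74 ± 0.19 at 4 d, adjusted p = 0.00518). Its cofactor CKS1B fell at 4 d (-1.36 ± 0.39, adjusted p = 0.00822), a call lost with an offset for GC content and length (adjusted p = 0.0752), and CKS2 (-1.46 ± 0.18, or -0.83 with that offset) and SKP1 (-1.10 ± 0.28) fell too. CDKN1B RNA was thus called higher at 2 d and 4 d, and SKP2 RNA lower at 4 d and not at 2 d (0.17 ± 0.19, adjusted p = 0.502). Of 15 genes of CCR4-NOT and its partners, 3 rose and 4 fell at 4 d, against 57.8% of all genes called, with a median of 0.009, close to that of all genes. Whether the lists differ from each other was not tested. PRMT1, an arginine methyltransferase that binds BTG1 and BTG2, fell by 1.63 ± 0.19 log2 units at 2 d and 2.00 ± 0.19 at 4 d (adjusted p = 2.65e-05 and 1.38e-06), from 408 to 102 CPM. RQCD1 (the CNOT9 subunit, -0.91 ± 0.13) fell and PAN3 (0.92 ± 0.22), of another deadenylase, rose.

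Regulators known to act on inhibitor genes changed in both directions, some of them by 4 h. Of 21 tested, 4 were higher (3 to 7 over the alternatives) and 1 lower at 4 h, against 6.23% of all genes called. At 2 d 12 were higher and 3 lower, against 16.9% and 18.7% of all genes. At 4 d 14 were higher and 5 lower, with a median of 0.96, against 28.1% and 29.7% of all genes. MYC, a repressor of CDKN1A and CDKN1B, was 1666 ± 378 CPM at 0 h and 1805 ± 241 at 4 h, then 378 ± 26.7 CPM at 2 d and finally 193 ± 41.0 at 4 d (SD, n = 3). Its log2 fold change was -2.14 ± 0.21 at 2 d and -3.11 ± 0.22 at 4 d (adjusted p = 8e-06 and 1.08e-07). CEBPB, a factor of late granulocyte development, rose by 4 h (1.00 ± 0.22, adjusted p = 0.0184, a call lost in 5 alternatives, 1 of them without 4 h replicate 2 at an adjusted p of 0.0738, and at 1.56 with the offset for GC content and length) and stood at 2.20 ± 0.23 at 4 d. KLF4, an activator of CDKN1A, fell by 4 h (-2.04 ± 0.32, adjusted p = 0.00262) and further at 4 d (-3.12 ± 0.37), at low levels of 2.87 CPM at 0 h and 0.318 CPM at 4 d.

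**Figure D5:**
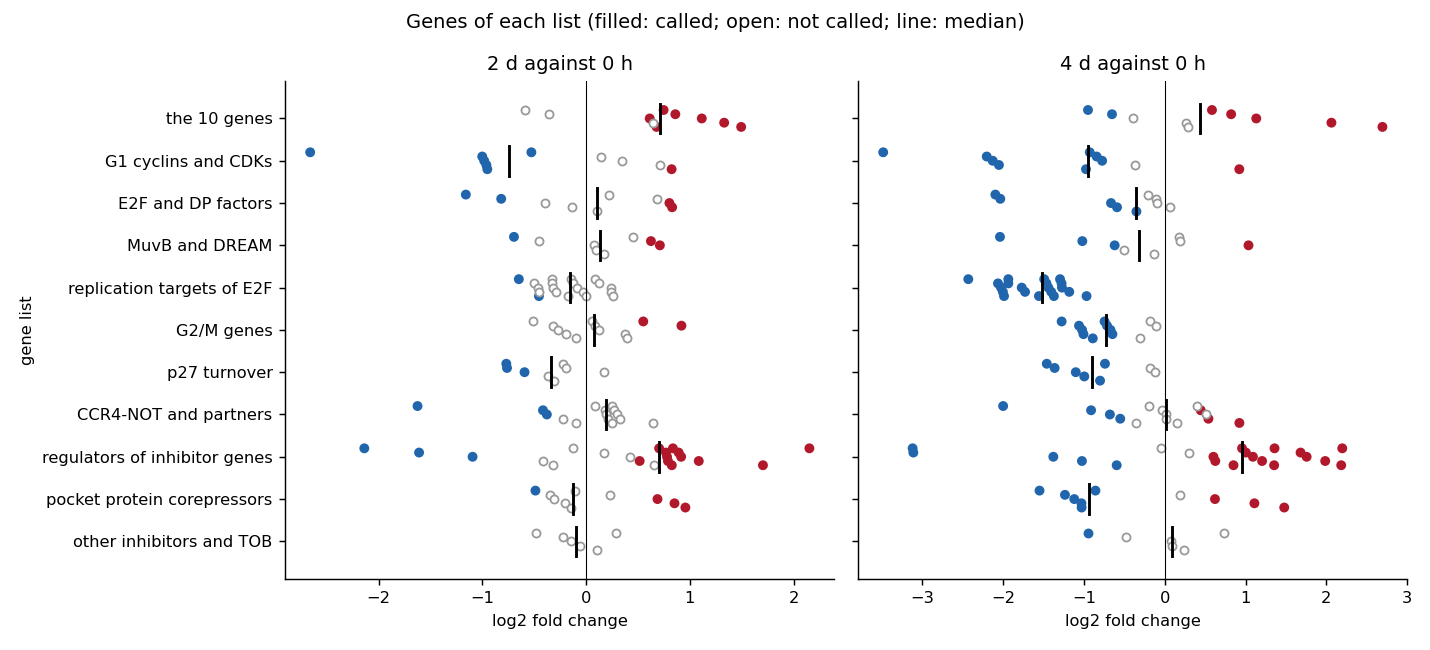
Log2 fold change against 0 h (horizontal axes) of each gene of the 10 and of the lists around them, at 2 d (left) and 4 d (right). Filled points passed an adjusted p under 0.05, open points did not, and the line is the median. At 4 d all 20 replication targets lie below 0 and filled, with a median of -1.52, while the 10 genes lie on both sides.

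As a description of likeness, the 2 tested genes at 10 CPM or more whose log2 level followed each of the 10 most closely over the 12 libraries were listed, by Pearson's r. The points share libraries, depth and GC bias, and a high r is common where most change lies between times. BTG1 was closest to DAPK2 and CEACAM1 (r = 0.994 for both) and BTG2 to EVI2B (0.996) and TXNIP (0.995). TXNIP rose from 224 CPM at 0 h to 467 at 2 d and 992 at 4 d. RBL1 was closest to BRIP1 (0.994), a DNA repair helicase, and CCP110 (0.991), a centriole protein, and RBL2 to DMXL2 (0.986) and ATXN7 (0.979). RB1 had MFAP3 (0.985) and RNF6 (0.974). CDKN1B was nearest to CTDSP2 (0.986), a phosphatase gene, and UBASH3B (0.976). CDKN2C was nearest to BPI (0.963), a granule protein gene at 392, 288, 681 and 398 CPM in order of time, and FZD1 (0.923). CDKN2D had TNFAIP8L1 (0.968) and SH3BP1 (0.966), BTG3 had SLC22A16 (0.925) and FARS2 (0.922), and CDKN1A, the gene with the fewest reads, had the lowest values, ZNF174 (0.829) and FAM105A (0.806).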

How the data were processed

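RNA sequencing of HL-60 cells gave 12 libraries, 3 each at 0 h, 4 h, 2 d and 4 d of ATRA, grouped by their titles. The authors deposited raw counts of reads for each gene symbol. Per the submitters' processing notes, the tools were FastQC, Trim Galore 0.6.7, HISAT2 2.1.0 and HTSeq 1.99.2 with hg19. Which annotation, strand setting and kit they used is not given in the sources used here, so reads of overlapping genes on opposite strands may be mixed. Rows of unassigned reads were kept out of library sizes and tests, and reads outside genes reached 28.15% of a library.

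Counts were fitted in R 4.3.3 with edgeR 4.0.16 (filterByExpr, TMM factors of 0.864 to 1.098, quasi-likelihood test, 1 mean per time, 8 residual degrees of freedom) in 6 comparisons of times, with Benjamini-Hochberg adjustment over 12671 genes in each. The scripts were tested on simulated data. Lengths and GC content came from GENCODE 29 transcripts (GRCh38), matched by symbol for 90.2% of genes, and promoters from RefSeq. Replicates differed by more than counting error (chi-square per degree of freedom of 3.47 to 98.02), so none were merged.

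The 10 genes and the lists around them were chosen with earlier results of these data known. Named genes are the 10, MYC, SKP2, CDK6, E2F1 and CCND3, the 3 largest called changes at 4 d per list, and 2 genes per member by likeness. Another gene of that rule and its list are not reported here. Alternatives were RLE factors, library totals, the 20 most abundant genes left out, no filter and a filter at 1 CPM. Others were a replicate block, a GC and length offset, fits to 6 libraries, DESeq2 1.42.0 and limma-voom (limma 3.58.1). Each library was also left out and, added after seeing the data, 3 libraries were left out. These make 23, and an adjusted p under 0.01 was applied besides, to counts of the 10 genes alone.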

Additional observations from a re-analysis of the deposited data

How the results depend on the processing

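Of 60 results for the 10 genes (10 genes in 6 comparisons), 31 were called, 24 of them under all 23 alternatives and 7 not under some, and none of the 31 changed direction. The stricter threshold, an adjusted p under 0.01, is not among the 23. Some calls kept under all 23 miss it, such as CDKN1B at 2 d against 0 h (adjusted p = 0.0101 in edgeR's test). Of the 29 not called, 10 passed under some alternative. At 4 h against 0 h the count of genes called among the 10 was 0, 1 with no filter on low counts, 1 with the GC and length offset and 6 without the 3 GC-rich libraries. The count over all genes, 790 there, was 1960 with no filter, 1409 with the offset, 261 with the fit to 6 libraries, 1341 with DESeq2 and 3192 without the 3 libraries. Without those 3 libraries it was 6725 (4377 with all) for 2 d against 4 h and 5549 (3374) for 4 d against 2 d. At an adjusted p under 0.01, 4 of the 10 were called at 2 d against 0 h, in place of 7. The count over all genes was not taken at that threshold, so no background share can be set beside the 4.

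Replicate numbers showed no steady pairing of the libraries. Over 18 pairs of same-numbered libraries the correlation of deviations from the group mean ran from -0.809 to 0.671, with 6 over 0.1. The 3 GC-rich libraries carry different replicate numbers and may weigh on these deviations, so the check cannot exclude a pairing. With the replicate block, 381 genes were called at 4 h against 0 h, and RBL1 at 2 d against 0 h (adjusted p = 0.0846) and RBL2 at 2 d against 4 h (0.0763) were not called.

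With each library left out in turn, calls among the 10 ran from 0 to 2 at 4 h, 5 to 7 at 2 d and 6 to 7 at 4 d against 0 h, 5 to 6 for 2 d and 7 to 8 for 4 d against 4 h, and stayed at 4 for 4 d against 2 d. Over all genes they ran from 254 to 1519, 3124 to 4954, 6480 to 7627, 3266 to 5086, 6829 to 8264 and 2110 to 4215 in the same order. The fit without 4 h replicate 3 gave the 1519 calls and that without 4 h replicate 2 the 254.

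Direction changed for some differences that were not called. CDKN1B at 4 h against 0 h was 0.011 with library totals, 0.004 with the offset and 0.009 with limma-voom, and from -0.162 to 0.092 without single libraries. With the offset, CDKN2C (0.014) and CDKN2D (0.041) at 4 h against 0 h, BTG3 at 2 d against 4 h (0.103) and CDKN2D at 4 d against 2 d (-0.041) changed sign. Without the 3 libraries RB1 (-0.165) and RBL1 (-0.185) at 2 d against 4 h and CDKN1B (0.06) and CDKN2D (-0.073) at 4 d against 2 d did so. Leaving out 1 library gave -0.185 to 0.242 for RB1 and -0.196 to 0.142 for RBL1 at 2 d against 4 h, and -0.048 to 0.387 for CDKN1A, -0.205 to 0.053 for CDKN1B and -0.082 to 0.184 for CDKN2D at 4 d against 2 d. The cause was not tested. With no filter, the median of all genes at 4 h against 0 h was 0.267. Depth limits CDKN1A, with 10 to 25 reads per library, and BTG3, with 19 to 53.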
